A study of Mus musculus with 23 samples.

Results

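Sema7a and Fgl2 are described here through the 4 Affymetrix probe sets that the platform annotation assigns to them alone, 2 for each gene, out of 12488 probe sets and 8251 named genes on the array. The probe sets of Sema7a are 93411_at and 97794_at, and those of Fgl2 are 97949_at and 162289_at. Both genes were chosen by their high serum difference in newly transcribed RNA, where 93411_at ranked 2 and 97949_at ranked 3 of 12422 tested probe sets. That difference is therefore given as a description, and so is any comparison of the members that uses newly transcribed RNA of treated cells. Their tests are on total RNA, amplified total RNA and newly transcribed RNA of starved cells. The starved newly transcribed arrays are the low side of the serum difference that chose the genes, so tests that use them are not free of that choice.

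The 23 arrays measured primary mouse embryonic fibroblasts, connective tissue cells taken from embryos at e14.5, whose genotype the labels give for every sample as C57/BLACK6, ATF1 -/+. All cultures were starved for 48 h in 1% dialyzed fetal bovine serum, and all then received 200 µM 4-thiouridine and 3H-cytidine for 2 h. During those 2 h the starved groups stayed in 1% serum and the treated groups received 10% serum. 4-thiouridine is a uridine analogue that enters RNA as it is made, so a thiol-binding organomercurial matrix can capture the newly transcribed RNA. Unfractionated (total) RNA was hybridised as well, with and without a step that its titles call amplified. Each kind had 4 starved and 4 treated arrays, except amplified total RNA, which had 3 starved and 4 treated. Replicates carry biological replicate numbers, and nothing says whether they came from separate embryos, so the p-values measure the spread between these samples. No untreated culture without 4-thiouridine, and no Atf1 wild-type culture, was among the groups.

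Sema7a encodes semaphorin 7A, a semaphorin held at the cell surface by a lipid (GPI) anchor. It is known to act through integrins that contain the beta 1 chain, in axon growth and on monocytes and macrophages, and it also binds plexin C1. Fgl2 encodes fibrinogen-like protein 2, which carries the globular domain found at the end of the fibrinogen chains. Its membrane form is known to cleave prothrombin, a step of coagulation, and its secreted form binds the inhibitory and activating Fc receptors encoded by Fcgr2b and Fcgr3 and restrains T cell and dendritic cell responses.

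The 250 bases before the RefSeq start of each gene, in mouse build GRCm38.p6 and written 5′ to 3′ on the gene's strand, are shown because the comparisons concern transcription of these genes. Capitals mark the matches to the motifs named after the sequences. The Sema7a window is chr9:57939862-57940111 on the plus strand and the Fgl2 window is chr5:21372423-21372672 on the plus strand.
Sema7a: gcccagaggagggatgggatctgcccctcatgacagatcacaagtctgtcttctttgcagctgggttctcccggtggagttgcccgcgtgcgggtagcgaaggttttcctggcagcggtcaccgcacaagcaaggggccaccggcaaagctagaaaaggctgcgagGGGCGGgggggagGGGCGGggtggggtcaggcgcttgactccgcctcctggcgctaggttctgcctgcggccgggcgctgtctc
Fgl2: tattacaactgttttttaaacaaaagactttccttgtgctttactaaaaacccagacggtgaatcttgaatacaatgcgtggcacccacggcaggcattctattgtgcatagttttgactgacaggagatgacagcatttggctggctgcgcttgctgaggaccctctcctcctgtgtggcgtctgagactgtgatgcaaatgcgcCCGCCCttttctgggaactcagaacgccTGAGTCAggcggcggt

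The windows differ in base composition. The Sema7a window is 66.4% G or C with 17 CpG dinucleotides, and the Fgl2 window is 49.6% G or C with 10, against medians of 52.4% and 6 over 32851 promoter windows of the same length. The Sema7a window holds the GC box GGGCGG 2 times, at -84 to -79 and at -71 to -66 from the start. The Fgl2 window holds it 1 time on the opposite strand, at -44 to -39, and this motif is in 32.7% of all windows. The AP-1 motif TGACTCA, read on both strands, is in the Fgl2 window at -16 to -10 on the opposite strand and has no match in the Sema7a window. It is in 4.46% of all windows. No match on either strand was found in either window to TATAAA, the TATA box (12.4% of all windows), to the cAMP response element TGACGTCA (1.55%), to the EGR motif GCGTGGGCG (0.536%) or to CCAAT (33.8%). The same held for the CArG box bound by serum response factor (1.47%) and the NF-kB motif (3.9%). The motifs were picked after the windows had been seen, and a match describes letters, not binding.

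Signals are given as log2(normalized intensity + 16), on which a probe set with no signal reads 4. The lowest value on any array was 4.00. Sema7a by 93411_at was the brighter of its probe sets. Newly transcribed RNA read 7.65, 7.54, 6.48 and 7.21 in starved cells, replicates 1 to 4, and 9.61, 10.01, 9.57 and 9.30 in treated cells. Total RNA read 6.12, 4.53, 4.96 and 4.97 in starved cells and 6.98, 7.38, 6.79 and 6.68 in treated cells. Every treated array lay above every starved one in both kinds, by a wide gap in newly transcribed RNA and a narrow one in total RNA, where starved replicate 1 was the highest starved array. In amplified total RNA 93411_at read 6.29, 6.08 and 5.68 in starved cells and 7.19, 8.02, 7.55 and 7.39 in treated cells, again without overlap. That separation holds after normalization only. As deposited, amplified RNA ran from 9.9 to 56.8 in starved and from 43.6 to 304.7 in treated cells, which overlap. The share of all tested probe sets with every treated array above every starved one was 2.13% for newly transcribed, 1.52% for total and 1.26% for amplified RNA, and the first of these belongs to the contrast by which the genes were chosen. As deposited, before normalization, 93411_at ran from 4.2 to 52.3 in starved total RNA and from 557.8 to 1072.2 in treated newly transcribed RNA.

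Fgl2 by 97949_at started near the bottom of the scale in starved cells. In newly transcribed RNA it read 5.32, 4.86, 4.88 and 5.41 in starved cells and 8.23, 6.27, 6.76 and 8.59 in treated cells. Treated replicates 1 and 4 stood well above replicates 2 and 3, and all of them lay above the starved arrays. In total RNA 97949_at read 4.84, 4.97, 5.16 and 4.70 in starved cells and 6.56, 6.34, 7.39 and 6.64 in treated cells, which did not overlap. Amplified total RNA read 4.15, 4.56 and 5.83 in starved cells and 6.43, 5.41, 5.48 and 8.20 in treated cells. There the groups overlapped, since starved replicate 3 exceeded treated replicates 2 and 3.

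The second probe sets gave other pictures. Sema7a by 97794_at read 4.50, 5.20, 5.04 and 5.56 in starved and 4.68, 6.72, 6.54 and 6.02 in treated newly transcribed RNA. In total RNA it read 4.75, 5.46, 4.999 and 4.45 in starved cells and 4.84, 6.71, 6.06 and 5.68 in treated cells. Replicate 1 was the low treated array in both kinds, and the groups overlapped in each. Amplified total RNA read 4.54, 4.66 and 4.73 in starved cells and 4.63, 5.73, 4.79 and 4.64 in treated cells, so that replicate 2 alone stood out. Fgl2 by 162289_at stayed between 4.05 and 4.47 on all 23 arrays, next to the floor, and its groups overlapped in every kind of RNA. Which part of the transcript each probe set reads was not analysed here.

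**Figure D1:**
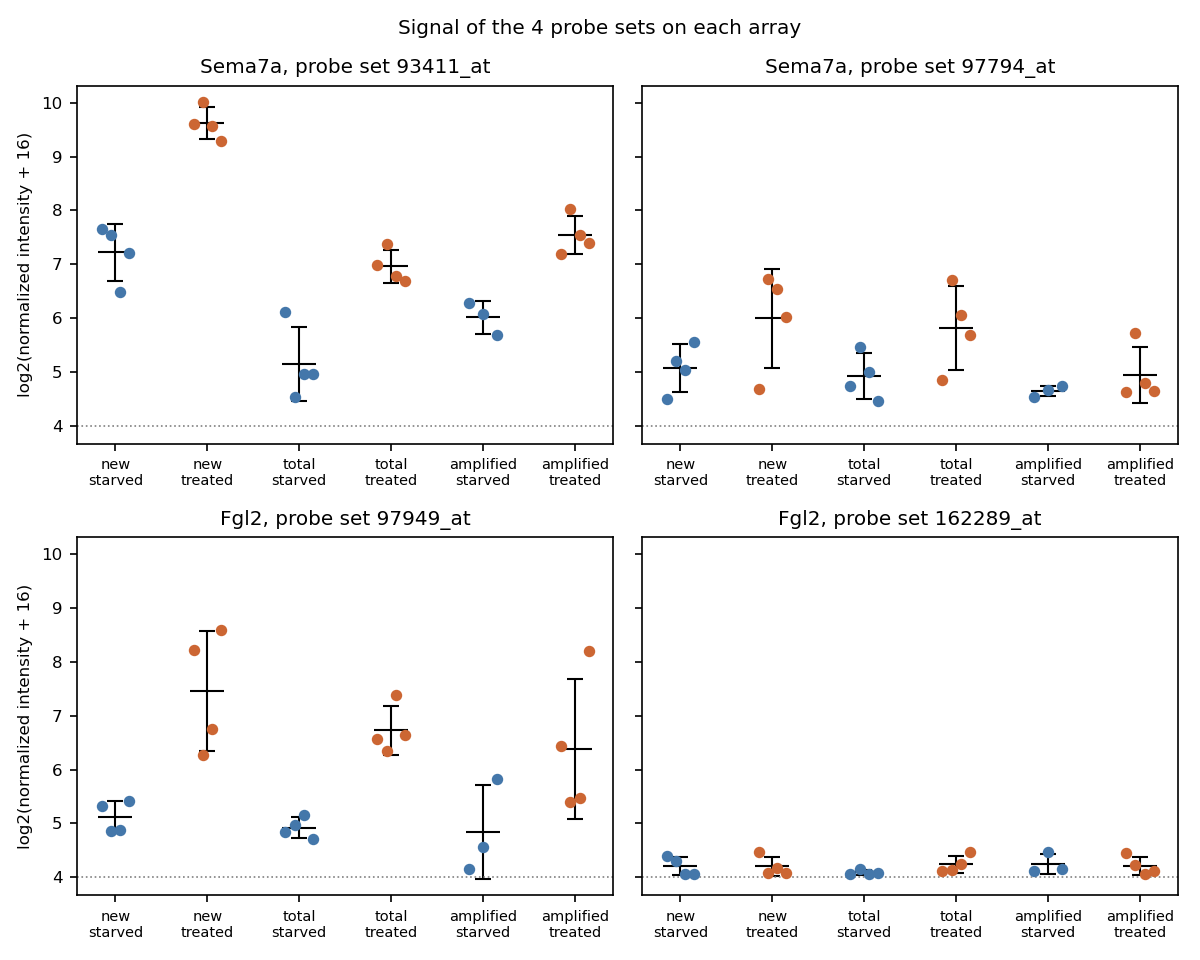
Signal of the 4 probe sets on each of the 23 arrays, as log2(normalized intensity + 16) on the vertical axis, by kind of RNA and serum group. Points are arrays, black bars the group mean ± SD, and the dotted line the floor at 4. On this normalized scale Sema7a 93411_at is apart between serum groups in each kind of RNA and Fgl2 97949_at in newly transcribed and total RNA. Fgl2 162289_at stays between 4.05 and 4.47. As deposited, the serum groups of 93411_at overlap in amplified RNA.

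The order of the group means of Sema7a 93411_at was led by treated newly transcribed RNA, at 9.62 ± 0.29 (SD, n = 4), whose arrays lay above those of every other group. Treated amplified total RNA (7.54 ± 0.35, SD, n = 4), starved newly transcribed RNA (7.22 ± 0.53, SD, n = 4) and treated total RNA (6.96 ± 0.31, SD, n = 4) followed, and each overlapped its neighbour in the order. Starved amplified total RNA (6.01 ± 0.31, SD, n = 3) lay apart from treated total RNA, and it overlapped starved total RNA (5.15 ± 0.68, SD, n = 4). For Fgl2 97949_at every neighbouring pair in the order overlapped. Treated cells held the top 3 places, where newly transcribed RNA read 7.46 ± 1.12 (SD, n = 4), total RNA 6.73 ± 0.46 (SD, n = 4) and amplified RNA 6.38 ± 1.30 (SD, n = 4). In starved cells newly transcribed RNA read 5.12 ± 0.29 (SD, n = 4), total RNA 4.92 ± 0.20 (SD, n = 4) and amplified RNA 4.85 ± 0.88 (SD, n = 3).

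In newly transcribed RNA, the contrast that chose the genes, treated minus starved was 2.40 for Sema7a 93411_at and 2.34 for Fgl2 97949_at, with pooled SDs of 0.43 and 0.82. The second probe sets differed by 0.92 for Sema7a 97794_at and by -0.00 for Fgl2 162289_at, and ranked 147 and 6365. By replicate number, 93411_at differed by 1.96, 2.47, 3.09 and 2.09, and 97949_at by 2.91, 1.42, 1.88 and 3.17. In this contrast 0% of the 12422 probe sets were called without a replicate block and 1.74% with the replicate number as a block.

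Total RNA was not used to choose the genes, but it came from the same experiment and was seen beforehand. Fgl2 97949_at rose there in treated cells by 1.81 ± 0.23 (SE), adjusted p = 0.0306 in limma's moderated test, with treated above starved in all 4 replicate numbers. Its mean normalized intensity was 14.46 in starved and 94.8 in treated cells. With the replicate block the adjusted p was 0.0200. This call rested on the full set of arrays: it held without treated replicate 3 (adjusted p = 0.0376) and was lost, with adjusted p up to 0.137, when any other array was left out. With the replicate block it held without replicate 2 (adjusted p = 0.0431) and was lost without replicate 1, 3 or 4 (adjusted p = 0.0783, 0.158 and 0.163). The call was also lost on the values as deposited (adjusted p = 0.0898), and the difference itself stayed between 1.60 and 1.97 over these alternatives. Of all probe sets 0.121% were called in total RNA without the block and 0.483% with it.

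Sema7a 93411_at differed by the same 1.81 in total RNA, with an SE of 0.33, and did not pass the test (adjusted p = 0.148, and 0.113 with the replicate block). Its mean normalized intensity was 22.8 in starved and 111 in treated cells. The difference was 0.86, 2.85, 1.83 and 1.71 in replicates 1 to 4, where the small first value came with the high starved array of replicate 1. Without that array the difference was 2.14 and the adjusted p 0.0220. With any other array left out the adjusted p was 0.231 to 0.487, so the test was passed in that setting alone among the single-array omissions. Sema7a 97794_at differed by 0.91 ± 0.39 (SE) and Fgl2 162289_at by 0.15 ± 0.11 (SE), and neither passed (adjusted p = 0.980 and 1.000). Of the 12422 probe sets, 93411_at ranked 21 and 97949_at 20 by their difference in total RNA, and 97794_at ranked 93.

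No probe set passed the serum test in amplified total RNA (0% of 12422 without the block). Sema7a 93411_at differed there by 1.52 ± 0.26 (SE), with an unadjusted p of 0.000629 and an adjusted p of 1.000. By that unadjusted measure 175 of the 12422 probe sets lay below 0.05, a smaller share than chance alone would give at that threshold. Fgl2 97949_at differed by 1.53 ± 0.75 (SE), which fell to 0.93 without treated replicate 4. Sema7a 97794_at differed by 0.30 ± 0.30 (SE), or 0.04 without treated replicate 2, and Fgl2 162289_at by -0.03 ± 0.18 (SE). The difference of the serum responses, amplified minus total, was -0.29 for 93411_at with a 95% interval from -1.25 to 0.67, and -0.28 for 97949_at with an interval from -1.97 to 1.40. It was -0.61 (-1.74 to 0.53) for 97794_at and -0.18 (-0.60 to 0.24) for 162289_at. None passed the test, as for 0% of all probe sets (141 of 12422 had an unadjusted p under 0.05, again a smaller share than chance alone would give). The intervals of 97794_at and 97949_at are wide enough to hold a loss of the whole response seen in total RNA.

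**Figure D2:**
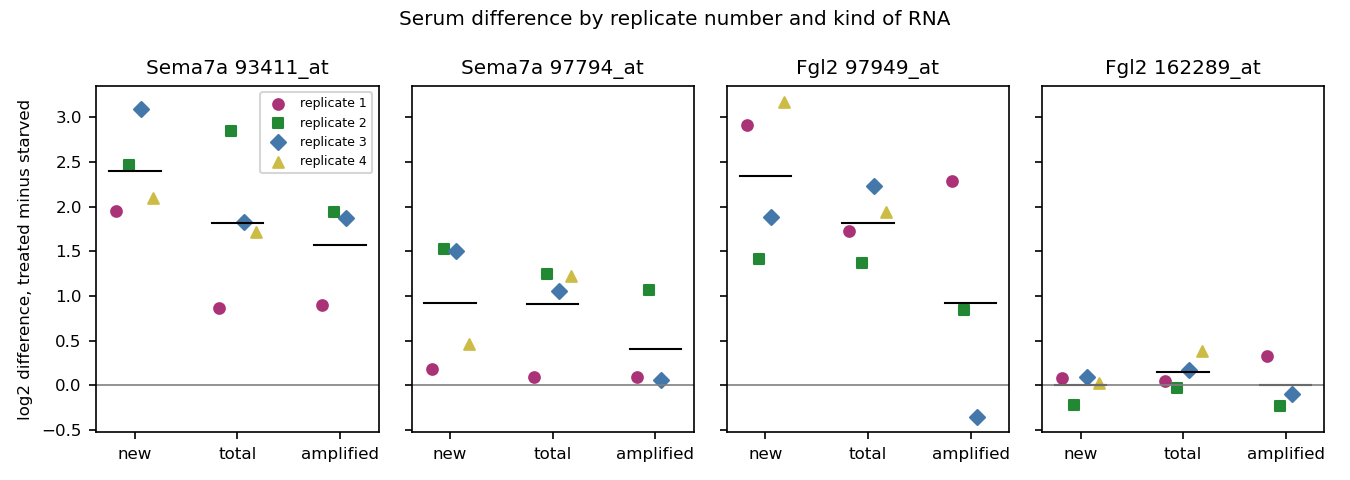
Treated minus starved log2 difference of each probe set by replicate number (points) in newly transcribed, total and amplified total RNA, with the mean as a black bar. Amplified total RNA has 3 numbers in both groups. Sema7a 93411_at was higher in treated cells in every number, whereas Fgl2 97949_at was lower in amplified replicate 3.

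Set against total RNA of starved cells, newly transcribed RNA held more Sema7a signal by 93411_at relative to the rest of the array. The difference was 2.08 ± 0.38 (SE), adjusted p = 0.00470 in limma's test, and all 4 newly transcribed arrays exceeded all 4 total RNA arrays. The starved newly transcribed arrays also enter the serum difference that chose the genes, so the test is not free of that choice. Calls were common in this comparison, at 27.4% of probe sets. Fgl2 97949_at differed by 0.20 there, Sema7a 97794_at by 0.16 and Fgl2 162289_at by 0.11, and none of them was called. In treated cells the newly transcribed arrays are the high side of the serum difference that chose the genes, so the differences are a description with no test. They were 2.66 for 93411_at, 0.73 for 97949_at, 0.17 for 97794_at and -0.04 for 162289_at, in a comparison that called 19.1% of all probe sets.

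Against amplified total RNA of starved cells, Sema7a 93411_at was 1.21 ± 0.32 (SE) higher in newly transcribed RNA and did not pass the test (adjusted p = 0.0998), in a comparison that called 3.17% of probe sets. Sema7a 97794_at differed by 0.43, Fgl2 97949_at by 0.27 and Fgl2 162289_at by -0.05, and none was called. The same limit on the starved newly transcribed arrays applies here. For treated cells the differences are again a description. They were 2.09 for 93411_at, 1.05 for 97794_at, 1.08 for 97949_at (1.69 without amplified treated replicate 4) and -0.02 for 162289_at. Of all probe sets 4.05% were called there without the replicate block and 21.1% with it.

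Amplified and unamplified total RNA differed for Sema7a 93411_at, by 0.71 ± 0.22 (SE) with serum as a term (adjusted p = 0.0320), in a comparison that called 20.3% of all probe sets. The replicate block was fitted to 12 of the 15 arrays, without replicate 4, and pairing by number was not examined for this comparison. In that fit the difference was 0.67 and was not called (adjusted p = 0.114). On the deposited scale the difference was 0.35 (adjusted p = 0.712), and with a pseudocount of 1 it was 1.00 (adjusted p = 0.0515). The call was also lost, with adjusted p up to 0.0726, when any of 8 of the 15 arrays was left out. These were amplified starved replicates 1 and 2, amplified treated replicate 2, total starved replicates 2, 3 and 4, and total treated replicates 3 and 4. Fgl2 97949_at differed by -0.22 ± 0.38 (SE), Sema7a 97794_at by -0.60 ± 0.27 (SE) and Fgl2 162289_at by 0.06, and none was called.

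**Figure D3:**
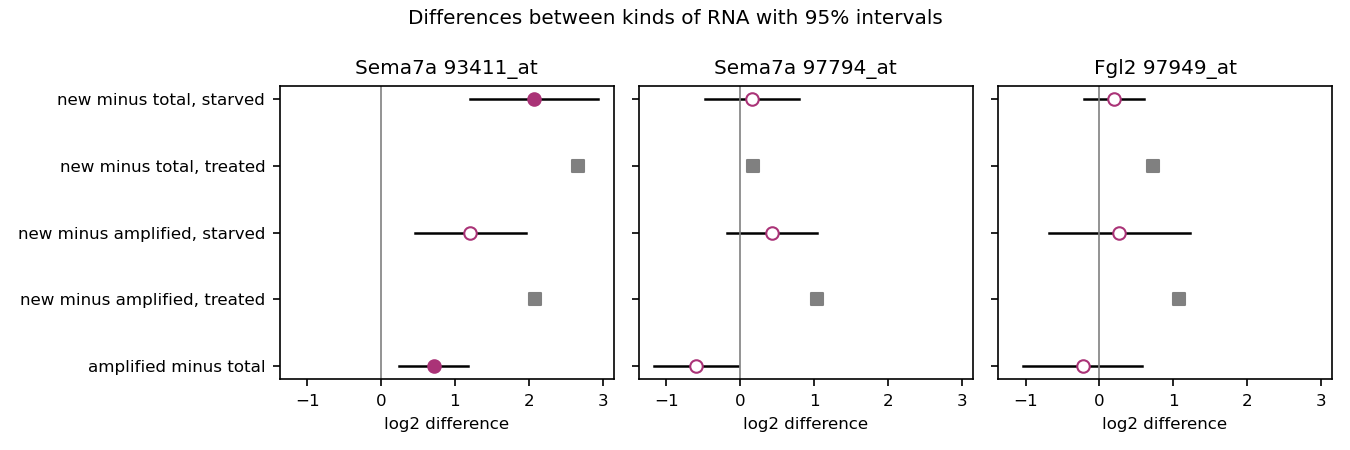
Log2 differences between kinds of RNA for 3 probe sets, from the fits without a block. Circles carry 95% intervals (lines) and are filled where the adjusted p was below 0.05, and grey squares are differences in treated cells, given without a test. Filled circles are seen for Sema7a 93411_at in newly transcribed minus total RNA of starved cells (2.08) and in amplified minus total RNA (0.71). The starved newly transcribed arrays also enter the serum difference that chose the genes.

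Several features differed between the arrays, and their part in the results was not tested. The newly transcribed and amplified arrays were split by hierarchical clustering into 2 clusters, a number set beforehand. Replicates 1 and 4 of newly transcribed RNA, replicates 1 and 3 of amplified starved and 1 and 4 of amplified treated RNA formed one, and the rest of these kinds the other. Within the first cluster Fgl2 97949_at differed between serum groups by 3.04 in newly transcribed and 2.33 in amplified RNA, and within the second by 1.65 and 0.88. Sema7a ran the other way, with 2.02 and 1.31 in the first cluster and 2.78 and 1.71 in the second for 93411_at. For 97794_at the values were 0.32 and -0.00 in the first and 1.51 and 0.60 in the second. Each cluster held 1 or 2 arrays per group, which gives values and no test. Median deposited intensities ran from 7.3 to 75.2 over the arrays. The log2 signal of the 3′ Gapdh control probe set minus that of the 5′ one, a measure of how far the labelled RNA reaches, spanned 1.46 to 3.36 for newly transcribed arrays, -0.32 to -0.06 for those of total RNA and 0.70 to 2.19 for amplified ones. Total RNA did not overlap the other kinds in this measure, so a difference by kind of RNA cannot be told apart there from a difference in this measure. Newly transcribed and amplified arrays overlapped in it.

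Markers of the labelled cell type were present. All 12 fibroblast marker genes were measured, with a mean normalized intensity per gene of 883 to 2168 in the 6 groups, although the probe set of Vim, a main filament protein of fibroblasts, was dim at 4.96 to 5.58. In newly transcribed RNA 3 of the 12 were called with the replicate block, where 1.74% of all probe sets were: Thy1 and Col6a1 rose by 1.04 and 0.71, and Lum fell by 1.38 (adjusted p = 0.0266, 0.0416 and 0.0461). Without the block none of these 3 was called (adjusted p = 0.983, 0.935 and 0.935). In total RNA they differed by 0.07, 0.05 and -0.02. Macrophage markers were present too, though not all of them, which bears on Fgl2, a gene also expressed by macrophages. Lyz2, Cd14 and Laptm5 were bright, at group means of 8.95 to 10.86, whereas Itgam and Aif1 were dim, at 4.17 to 5.88. All 13 macrophage markers were measured. None was called in any kind of RNA without or with the block, where at most 1.74% of all probe sets were called. Their median serum differences were 0.18 (newly transcribed), 0.21 (total) and 0.37 (amplified), with 10, 13 and 12 of 13 above 0. Their summed intensity per array ran from 1874 to 5280 in starved and from 3350 to 7507 in treated newly transcribed RNA, from 3245 to 7490 and from 3206 to 8133 in total RNA, and from 3257 to 9625 and from 3594 to 10344 in amplified RNA. In treated newly transcribed RNA the sum was 3354 and 3350 in replicates 1 and 4, where Fgl2 97949_at read 8.23 and 8.59, and 7507 and 6172 in replicates 2 and 3, where it read 6.27 and 6.76. Replicates 1 and 4 were in the first array cluster and 2 and 3 in the second, so sum and cluster cannot be told apart there. In starved newly transcribed RNA the sums of replicates 1 to 4 were 3629, 5280, 3628 and 1874, so that the sum was higher with serum in replicates 2, 3 and 4. In total RNA the sums from starved to treated were 3245 to 3206 in replicate 1, 7210 to 7238 in replicate 2, 4193 to 7504 in replicate 3 and 7490 to 8133 in replicate 4. Replicate 3 thus had the widest rise of the sum and also the widest difference of Fgl2 97949_at in total RNA, 2.23, whereas in replicate 1 the sum hardly moved and the Fgl2 difference was 1.73. In amplified treated RNA replicate 4, highest in Fgl2 at 8.20, had a sum of 7659, against 3594, 8849 and 10344 in replicates 1 to 3. The part of macrophage RNA in the Fgl2 values was not tested. Fewer cells of a type and less RNA per cell cannot be told apart in bulk RNA. The 7 measured T cell markers stayed dim, at a mean of 8.44 to 13.4 per gene, and so did 4 erythroid ones at 10.5 to 16.5. The mean per gene was 18.0 to 42.6 for 7 endothelial markers, 14.4 to 24.2 for 6 epithelial markers and 91.0 to 178 for 6 neural markers. None of these passed the test in any serum comparison. Tubb3 carried the neural mean, at log2 group means of 8.62 to 9.78. Gap43 read 5.71 to 6.58, and Snap25, Syt1, Nefl and Map2 stayed between 4.10 and 5.17.

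**Figure D4:**
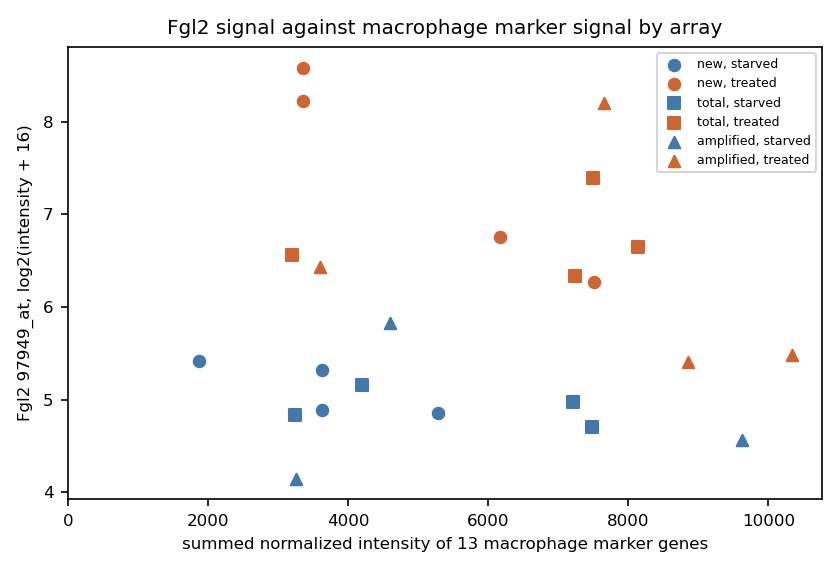
Fgl2 97949_at, as log2(normalized intensity + 16), against the summed normalized intensity of 13 macrophage marker genes on each of the 23 arrays. The treated array with the highest Fgl2 signal has a sum of 3350 in newly transcribed RNA (8.59), 7504 in total RNA (7.39) and 7659 in amplified RNA (8.20).

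Other semaphorins and semaphorin receptors were read in the same serum comparisons, and among the receptors named for Sema7a only Itgb1 was measured. Of 19 listed semaphorins 15 were measured, each by its brightest probe set, and their median serum differences were 0.08 (newly transcribed), 0.17 (total) and 0.06 (amplified), where the median of all tested probe sets was 0.01, -0.01 and -0.01. The list leaves out Sema7a itself. Without the block none was called, where 0%, 0.121% and 0% of all probe sets were in newly transcribed, total and amplified RNA. With the replicate block only Sema4f, a transmembrane semaphorin, rose in newly transcribed RNA (1.74% of all probe sets were called), by 1.19 ± 0.16 (SE), adjusted p = 0.0348, and was singled out after its value was seen. In total RNA Sema4f differed by 0.30 and was not called. Of 13 genes listed as receptors of semaphorins in general 7 were measured. None was called in any serum comparison, where at most 1.74% of all probe sets were called. Itgb1, the beta 1 integrin chain, was bright in all groups, at 11.51 to 12.04, and differed by 0.06, 0.13 and -0.25 in the same order of RNA. Plxnc1 and Itga1 had no probe set with a single symbol and were not analysed here. Of 15 genes of integrin signalling 10 were measured and none was called in any serum comparison, with median differences of 0.25, 0.18 and 0.08 in newly transcribed, total and amplified RNA.

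Genes with a fibrinogen domain other than Fgl2 itself numbered 15 listed and 10 measured. The fibrinogen chains themselves, Fga, Fgb and Fgg, stayed near the floor at group means of 4.12 to 4.69. With the replicate block Tnc, the matrix protein tenascin C, rose in newly transcribed RNA by 0.76 ± 0.13 (SE), adjusted p = 0.0461. It was the only gene of the list called there, where 1.74% of all probe sets were, and it too was singled out after its value was seen. Without the block Tnc was not called (adjusted p = 0.835). In total RNA it differed by 0.30 and was not called. The list's median differences were -0.06, 0.02 and 0.09 for newly transcribed, total and amplified RNA.

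Of 21 listed coagulation and plasminogen activation genes 17 were measured, and with the replicate block 2 rose in both newly transcribed and total RNA and none fell, where 1.74% and 0.483% of all probe sets were called. Plaur, the urokinase receptor, which gathers plasmin-forming activity at the cell surface, rose in total RNA by 2.03 ± 0.16 (SE), adjusted p = 0.0172, from 6.78 to 8.80. F3, tissue factor, which starts the coagulation cascade, rose there by 1.40 ± 0.14 (SE), adjusted p = 0.0267, from 8.53 to 9.93. In newly transcribed RNA Plaur rose by 1.66 and F3 by 0.87, with adjusted p = 0.0163 and 0.0416 in the same fit. Without the block neither passed in total RNA (adjusted p = 0.0766 and 0.0649), and neither was called in amplified RNA, where both differed by 1.40. F2, which encodes the prothrombin that Fgl2 can cleave, was near the floor in every group, at 4.08 to 4.23. Median differences of this list were 0.05, -0.00 and 0.06 in that order of RNA. Both Fc receptors bound by secreted Fgl2 were dim, with Fcgr2b at 4.88 to 5.44 and Fcgr3 at 4.98 to 5.53, and neither was called.

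The probe sets most like the members were named by Pearson's r over the 23 arrays, after centring each probe set within each kind of RNA. Such an r mainly reads the serum difference that all kinds share, and the arrays share normalization and clusters. For Sema7a 93411_at these were Nfil3 (r = 0.91) and Fosb (0.85), both leucine zipper transcription factors, Tgfbi (0.89), a secreted matrix protein, Srxn1 (0.87), an antioxidant enzyme, and Nr4a1 (0.84), an orphan nuclear receptor. For Fgl2 97949_at they were Klf10 (r = 0.90), a zinc finger transcription factor, Socs2 (0.88), a feedback inhibitor of cytokine signalling, and Fos (0.86), a subunit of AP-1. Noct (0.84), a circadian regulator, and Serpinb2 (0.83), an inhibitor of plasminogen activators, completed the 5. Between the members, r was 0.67 for both leading probe sets. It was 0.57 for the pair of Sema7a probe sets and 0.16 for the pair of Fgl2 probe sets.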

How the data were processed

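The deposited table holds linear intensity, with 1 value for each Affymetrix probe set on each array. Per the labels' protocols, RNA was reverse transcribed, linearly amplified and labelled with biotin by a T7 method. How probes were summarised or scaled is not given in the sources used here. Gene names came from the platform annotation, in which 10833 of the tested probe sets had 1 symbol, 396 had several and 1193 were not listed. Since array medians spanned 1.97 on the log2 scale, arrays were quantile normalized. Log2(value + 16) was then taken, which understates changes of dim probe sets. Tests left out 66 control probe sets and ran over 12422 with limma 3.58.1 under R 4.3.3 (moderated, two-sided, and checked on simulated data), with Benjamini-Hochberg adjustment and a threshold of 0.05. The number of arrays limits the precision.

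There were 9 comparisons: the serum difference in each of the 3 kinds of RNA, amplified minus total response, newly transcribed against total and against amplified RNA for starved and for treated cells, and amplified against total RNA. Each used only the arrays it compares. Comparisons that hold newly transcribed RNA of treated cells were fitted alike. For the members only the difference is given there, since those values are the high side of the contrast that chose them. The starved newly transcribed arrays are its low side, and tests of the members that use them are not free of that choice. Numbers in the titles were taken as pairs where same-numbered arrays, each minus its group mean, correlated above 0.1 in every number. This held for the serum comparison in newly transcribed RNA (0.70 to 0.80) and in total RNA (0.23 to 0.70) and for newly transcribed against amplified RNA of treated cells (0.56 to 0.73). The pairing comes from the data. Alternatives were the replicate block, values as deposited, median scaling, a pseudocount of 1, dim probe sets left out, array clusters as a block and each array left out. The replicate block with each number left out was added after seeing the data.

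The members, gene lists and tests were chosen with earlier results of these data known. Named genes were all member probe sets, Plxnc1, Itgb1, Itga1, Fcgr2b and Fcgr3, up to 4 called genes per list by their difference in total RNA, and the 5 probe sets most correlated with each leading probe set. Where a list gene had several probe sets, its brightest stood for it. Promoter windows are from RefSeq, build GRCm38.p6, matched by symbol for 2 of 2 genes.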

Additional observations from a re-analysis of the deposited data

Results flagged for a closer look

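Among the 4 treated arrays of amplified total RNA, Sema7a 97794_at read 5.726 in replicate 2, far above the other 3 arrays (4.63, 4.79 and 4.64). The gap was large against the range of the group by Dixon's test. In all, 20 groups of values were examined in this way, and chance marks about 1 in 20 of them.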

How the results depend on the processing

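Most values kept their direction and their side of the threshold. The exceptions are given here, and their cause was not tested except where an alternative itself has fewer arrays. Counts of called probe sets moved most. In the serum comparison of newly transcribed RNA 216 were called with the replicate block and 45 with array clusters as a block, against 0 without, and from 0 to 1 with an array left out. In total RNA 15 became 2 on deposited values, 7 with a pseudocount of 1, 24 without dim probe sets, 60 with the replicate block, 1 to 19 with 1 array left out, and 0 to 10 with the replicate block and both arrays of a number left out. Newly transcribed against total RNA gave 1818 on deposited values in starved cells (1584 higher and 234 lower, against 1791 and 1618) and 1530 to 2311 with arrays left out in treated cells, where deposited values split 762 to 1283 and the main values 1175 to 1201. Newly transcribed against amplified RNA of starved cells gave 394 in the main setting, 0 on deposited values, with a pseudocount of 1 or with the replicate block, 255 with median scaling, 1479 with cluster block and 0 to 237 with an array left out. In treated cells 503 became 0, 231 (pseudocount of 1), 2626 (replicate block), 2257 (cluster block) and 147 to 619 with 1 array left out, or 818 to 3155 with the replicate block and both arrays of a number left out. Amplified against total RNA gave 353 on deposited values (24 higher and 329 lower) and, with median scaling, 1690 higher and 804 lower.

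For the members, serum in total RNA gave Fgl2 97949_at 1.93 on deposited values, 1.60 to 1.95 with 1 array left out and 1.68 to 1.97 with the replicate block and both arrays of a number left out. Sema7a 93411_at gave 1.61 to 2.14 and 1.47 to 2.13 in the same order. With a pseudocount of 1 they were 2.59 and 2.56 (adjusted p = 0.0376 and 0.284), and 97949_at in amplified RNA was 2.67 in place of 1.53. Newly transcribed against amplified RNA of treated cells, a description, gave 2.15 for 93411_at on deposited values. The replicate block left the differences of 97794_at and 97949_at unchanged, at 1.05 and 1.08. With arrays left out these 2 differences ran from 0.80 to 1.48 and from 0.71 to 1.69. For 93411_at, amplified against total RNA gave 0.35 on deposited values, 1.00 with a pseudocount of 1 and 0.67 with the replicate block (12 arrays). Each of these was no longer called. With an array left out the difference was 0.61 to 0.84.

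Signs turned only for differences that passed no test. The amplified minus total response of 97949_at was 0.078 with a pseudocount of 1 and ran from -0.89 to 0.21 with arrays left out. Newly transcribed against total RNA of treated cells gave 97794_at -0.019 on deposited values and -0.16 to 0.61 with arrays left out, and 162289_at -0.13 to 0.040. In starved cells 97794_at ran from -0.00071 to 0.35. Against amplified RNA of starved cells 162289_at was 0.0028 with the replicate block and -0.11 to 0.061 with arrays left out, and 97949_at ran from -0.077 to 0.76. In treated cells 162289_at ran from -0.10 to 0.062, and its serum difference in amplified RNA from -0.11 to 0.075. On deposited values the median of all probe sets shifted by -0.18, 0.21 and 0.25 in the serum comparisons of newly transcribed, total and amplified RNA, and by 0.13 and 0.35 in newly transcribed against total and amplified RNA of starved cells. The replicate block changed no other call of a member that was tested. Probe sets near the floor, 162289_at above all, allow no statement on change.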
